A study of Mus musculus with 6 samples.

Results

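The TAM receptors Axl, Tyro3 and Mertk and their ligand genes Gas6 and Pros1 were followed in 4T1, a metastatic mammary carcinoma line of the mouse. Every probe set annotated to exactly 1 gene symbol was kept where that symbol was one of these 5 genes, which gave 8 of the 45037 probe sets on the array and 5 of the 18193 genes with a symbol of their own. The 5 genes were selected on earlier results of the same contrast, NFAT1 shRNA against control shRNA, so their levels and differences are given as a description and without a test.

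Adherent 4T1 cells had been transduced with a vector carrying either a control shRNA or an shRNA against NFAT1, the calcium-regulated transcription factor encoded by Nfatc2. Both groups were selected for 10 days, and 200 ng of total RNA per sample was labelled and hybridised to an Affymetrix mouse array. There were 3 arrays per group, and no untransduced cells were analysed here. The labels name neither the shRNA sequence nor separate cultures, so the spread between arrays may be technical.

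TAM receptors are receptor tyrosine kinases with immunoglobulin-like and fibronectin type III domains outside the cell. Their ligands Gas6 and protein S carry a vitamin K-dependent Gla domain that binds phosphatidylserine on apoptotic cells and membranes, and thereby bridge such surfaces to the receptors. Gas6 binds all of the receptors, whereas protein S, the product of Pros1, acts on Tyro3 and Mertk. In phagocytes Mertk and Axl drive the engulfment of apoptotic cells and dampen inflammatory signalling, and in carcinoma cells Axl is known for its links to invasion, metastasis and drug resistance.

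Values are log2 RMA signals, so a step of 1 is a doubling, and all differences are NFAT1 shRNA minus control shRNA. Array medians lay between 5.42 and 5.48. Precision is limited by having 3 arrays in a group. The library NFAT1 shRNA 1 stood closer to the controls (correlations of 0.991 to 0.995) than to the other arrays of its group (0.985 and 0.986). Among 314 probe sets that reached a signal of 7 and ranged over at least 1 in the controls, control 3 was the middle control in 312. Of the 6 Nfatc2 probe sets, 4 were lower and 2 were higher on the arrays labelled NFAT1 shRNA, with differences from -0.76 to 0.35. None of these passed limma's test over all probe sets at an adjusted p under 0.05, and 3 had an unadjusted p under 0.05. The knockdown was therefore not seen on every Nfatc2 probe set, and the arrays are named by their labels.

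The Axl and Tyro3 promoter windows are shown because these were the receptors whose signal stood above the dim range of the array, and because the targeted protein is a DNA-binding factor. Both are the 250 bases before the gene's start as RefSeq places it on GRCm38.p6, written 5′ to 3′ on the gene's strand, with the matches to 4 short motifs in capitals. The Axl window is chr7:25788734-25788983 on the minus strand, and the Tyro3 window is chr2:119799264-119799513 on the plus strand. In the same gene table other transcripts give Axl an outer boundary at 25788924, inside its window, and Tyro3 one at 119797740, upstream of its window.
Axl: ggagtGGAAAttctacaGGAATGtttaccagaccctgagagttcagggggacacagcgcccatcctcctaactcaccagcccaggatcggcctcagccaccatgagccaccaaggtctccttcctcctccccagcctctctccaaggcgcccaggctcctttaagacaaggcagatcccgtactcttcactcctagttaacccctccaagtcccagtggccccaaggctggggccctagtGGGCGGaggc
Tyro3: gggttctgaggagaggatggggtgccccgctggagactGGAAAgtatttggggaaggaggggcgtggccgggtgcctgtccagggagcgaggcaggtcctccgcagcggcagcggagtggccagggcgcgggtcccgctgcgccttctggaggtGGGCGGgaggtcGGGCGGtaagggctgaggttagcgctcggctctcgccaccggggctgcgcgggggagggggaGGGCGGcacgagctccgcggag

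The motifs searched, on both strands and with overlaps allowed, were the NFAT core GGAAA, the AP-1 site TGANTCA, the GC box GGGCGG bound by SP1, and the TEAD site GGAATG. In the Axl window GGAAA began at base -245, GGAATG at base -233 and GGGCGG at base -10, counted from the start. In the Tyro3 window GGAAA began at base -212 and GGGCGG occurred 3 times. Of the 32851 windows of this length in the table, 55.6% held GGAAA, 32.7% GGGCGG, 12.6% GGAATG and 6.75% TGANTCA, so a GGAAA match was common to most promoters. TGANTCA was not among the letters of either window. A match is a string of letters and does not show binding.

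Axl was the bright receptor of these cells and the member with the largest difference. On 1423586_at the controls read 11.12, 10.91 and 11.07, and the NFAT1 shRNA arrays read 10.14, 9.43 and 9.90. Every NFAT1 shRNA array lay below every control array, with a gap of 0.77 between the groups against a range of 0.21 among the controls. The means were 11.03 ± 0.11 and 9.82 ± 0.36 (SD, n = 3 each), a difference of -1.21 ± 0.18 (SE). This corresponds to 43.2% of the control level. The NFAT1 shRNA arrays were spread over 0.71, at 53.8%, 32.9% and 45.6% of the control mean for arrays 1, 2 and 3. NFAT1 shRNA 1 was the nearest of the 3 to the controls for Axl. Without it the Axl difference was -1.37, and without NFAT1 shRNA 2, the lowest array, it was -1.01. In RNA from whole cultures, fewer cells that express a gene and less of its RNA per cell cannot be told apart.

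The other Axl probe set, 1438621_x_at, did not show this difference. It read 3.03, 2.67 and 2.72 in the controls and 2.67, 2.80 and 2.75 with NFAT1 shRNA, and the groups overlapped. Its suffix marks a probe set with probes that can also bind other transcripts. Its mean signal of 2.77 lay in the dim range described next. Averaging both probe sets gave an Axl difference of -0.64, the mean of a bright and a dim reading.

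**Figure D1:**
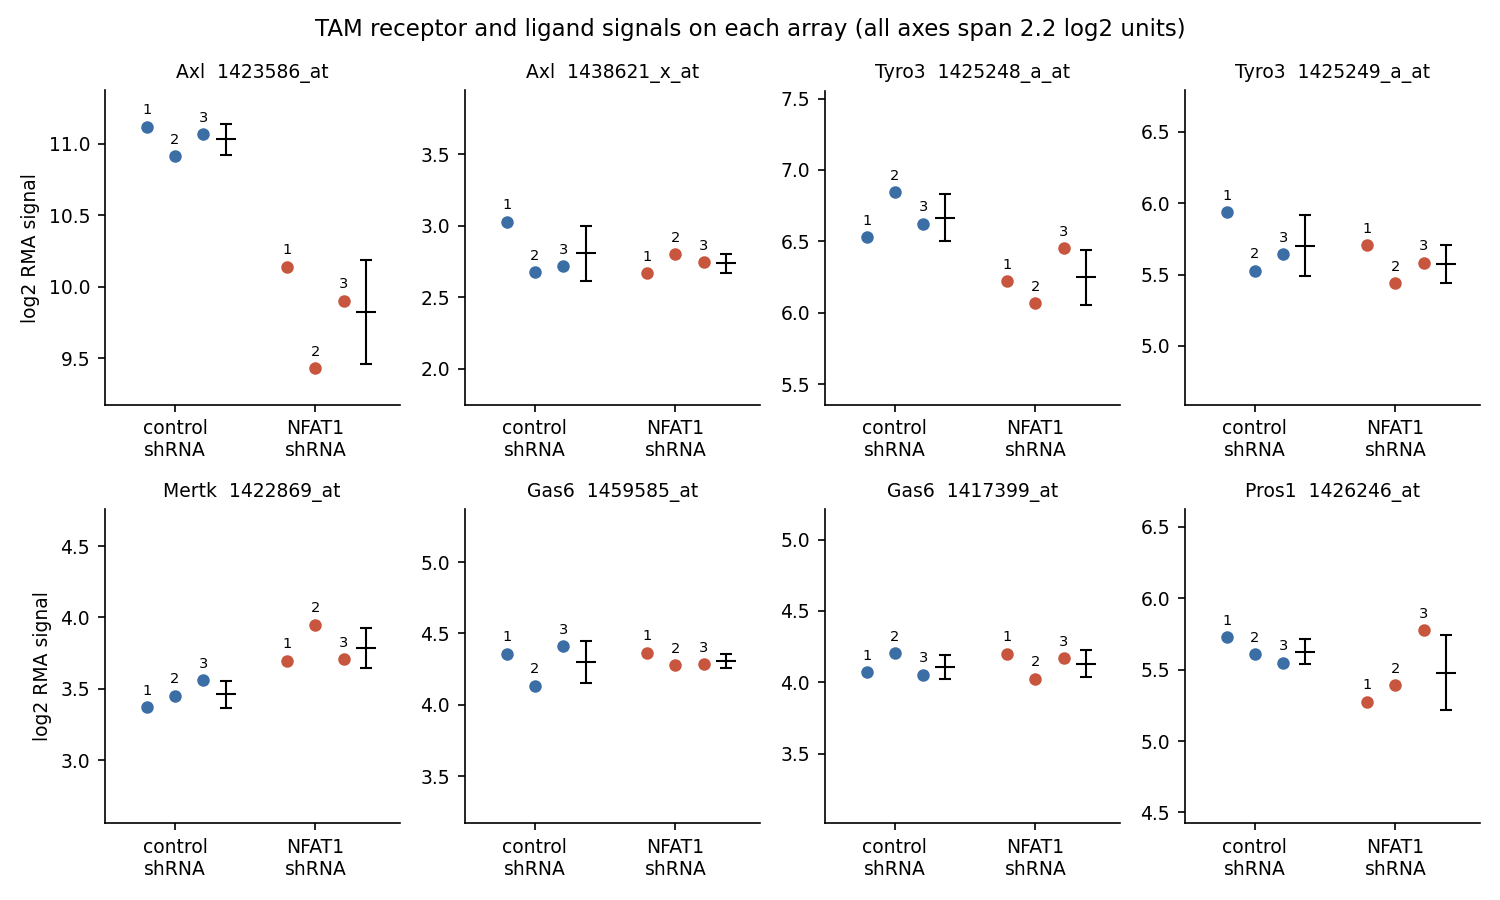
Log2 RMA signal of the 8 TAM probe sets on each array; blue points are control shRNA and red points NFAT1 shRNA arrays, numbered by replicate, and the bars beside them are the mean and SD of 3 arrays. All panels span the same height; the groups stand apart for Axl 1423586_at (11.03 against 9.82), narrowly for Tyro3 1425248_a_at and Mertk, and overlap for the other 5 probe sets.

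How dim a probe set was could be judged against 79 probe sets of olfactory, vomeronasal and trace amine receptor genes, which mammary cells are not known to use. Their mean signals had a median of 3.39, a highest value of 6.13 and a 95th percentile of 5.11. Axl 1423586_at, both Tyro3 probe sets and Pros1 were above that percentile on all 6 arrays, 4 of the 8 probe sets in all. Mertk, both Gas6 probe sets and Axl 1438621_x_at were below it on all 6 arrays. Such a reading gives only a bound on the transcript, since different probe sets respond differently to the same amount of RNA.

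**Figure D2:**
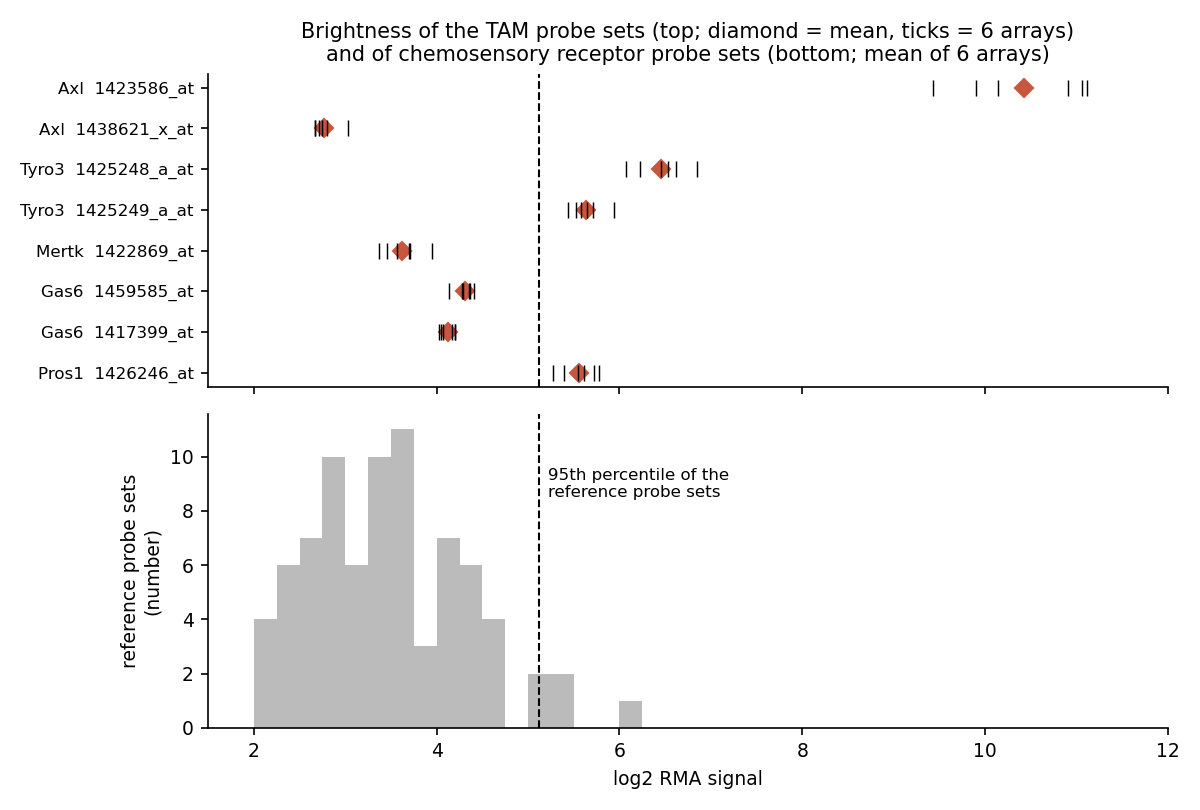
Top, mean log2 RMA signal (diamonds) and the 6 single arrays (ticks) of each TAM probe set; bottom, histogram of the mean signals of 79 chemosensory receptor probe sets, with their 95th percentile of 5.11 as a dashed line. Mertk, both Gas6 probe sets and 1 of the Axl probe sets lie left of this line. Pros1 and Tyro3 1425249_a_at lie right of the line but within the reference, whose highest value is 6.13. Axl 1423586_at lies far to the right of the whole reference.

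Tyro3, a TAM receptor best known from the nervous system, was read by 2 probe sets with means over the 6 arrays of 6.46 and 5.64. The second was close to the array medians. On 1425248_a_at the controls read 6.53, 6.85 and 6.62 and the NFAT1 shRNA arrays 6.22, 6.07 and 6.45. The groups did not overlap, but the gap between them was only 0.08, less than the range of 0.32 among the controls. The means were 6.67 ± 0.16 and 6.25 ± 0.19 (SD, n = 3 each), a difference of -0.42 ± 0.13 (SE) or 74.8% of the control level. On 1425249_a_at the means were 5.70 ± 0.21 and 5.58 ± 0.13 (SD, n = 3 each), the difference was -0.13 ± 0.13 (SE), and the groups overlapped. NFAT1 shRNA 2 was the lowest array on both probe sets, as it was for Axl 1423586_at. The mean of both probe sets differed by -0.27.

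Mertk, the receptor best known from macrophages, was within the range of the chemosensory reference. Its probe set 1422869_at read 3.37, 3.45 and 3.56 in the controls and 3.70, 3.95 and 3.71 with NFAT1 shRNA. The groups did not overlap and the NFAT1 shRNA arrays were the higher ones, by 0.32 ± 0.10 (SE) between means of 3.46 ± 0.10 and 3.79 ± 0.14 (SD, n = 3 each). All of these readings lay below the 5.11 of the reference, so the difference is one between dim signals and gives no fold change of Mertk RNA.

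The ligand genes did not separate the groups. For Gas6, 1417399_at read 4.07, 4.20 and 4.05 in the controls and 4.20, 4.02 and 4.17 with NFAT1 shRNA, a difference of 0.02 ± 0.09 (SE). The other Gas6 probe set, 1459585_at, ran from 4.13 to 4.41 over all 6 arrays and differed by 0.0085. Pros1, on 1426246_at, read 5.73, 5.61 and 5.55 in the controls and 5.27, 5.39 and 5.77 with NFAT1 shRNA. NFAT1 shRNA 1 and 2 were below every control and NFAT1 shRNA 3 above every control, so the mean difference of -0.15 ± 0.14 (SE) hid arrays on both sides. Without NFAT1 shRNA 3 the Pros1 difference was -0.29, and without NFAT1 shRNA 1 it was -0.045.

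Over the whole array, 0.2% of probe sets were called by limma at an adjusted p under 0.05. Of the 8 TAM probe sets 0 were called, and 3 had an unadjusted p under 0.05, beside 15.7% of all probe sets. The groups did not overlap for 3 of the 8, of which 2 were lower and 1 was higher, beside 20.9% of all 45037 probe sets. As the members were proposed from this contrast, nothing is read from these counts. Without NFAT1 shRNA 1, 5794 of the 45037 probe sets were called, Axl 1423586_at among them, and nothing is read from that call either. Among the 16286 probe sets that reached 7 on at least 1 array, 130 (0.798%) had a difference at or below that of Axl 1423586_at. In either direction, 289 (1.77%) had one at least as large. This rank describes the size of the difference only and is no test, as Axl was proposed from the same contrast.

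Axl was set beside the other receptor tyrosine kinases, a list of 52 genes of which 50 were measured. In the fit over genes, each read by its probe set of highest mean, 0.181% of genes were called higher and 0.33% lower. At an unadjusted p under 0.05, 10.1% of all genes were higher and 7.01% lower, and the counts at that level in the lists are to be read beside these shares. Of the 50 kinases 1 fell, 0 rose and 49 did not pass, and their median difference was 0.09 beside 0.04 over all genes. Epha1, an ephrin-A receptor, fell from 7.70 ± 0.16 to 6.47 ± 0.21 (SD, n = 3 each), by 1.23 ± 0.14 (SE; limma adjusted p = 0.0310). Its control arrays read 7.53, 7.72 and 7.85 and its NFAT1 shRNA arrays 6.28, 6.70 and 6.42. The Epha1 call was lost without control 1, 2 or 3 (adjusted p = 0.168, 0.17 and 0.253) and without NFAT1 shRNA 2 or 3 (0.0597 and 0.0749), and with the mean of its probe sets, where the difference was -0.54 (adjusted p = 0.0876).

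Of the 25 kinases that reached 7 on at least 1 array, 2 (Epha1 and Ror1) had a lower difference than Axl. Ror1, a receptor for Wnt5a, read 7.52, 6.76 and 7.14 in the controls and 5.63, 4.56 and 5.32 with NFAT1 shRNA. Its difference of -1.97 ± 0.31 (SE) did not pass (limma adjusted p = 0.0650). For Ror1, NFAT1 shRNA 2 was in the dim range and NFAT1 shRNA 3 was below the array medians. Insr, the insulin receptor, differed by 0.68 ± 0.44 (SE; adjusted p = 0.443) and its groups overlapped. For 4 of the 25, Epha1 and Ror1 among them, every NFAT1 shRNA array lay below every control. For 1 every NFAT1 shRNA array lay above, beside 20.9% of all probe sets without overlap in either direction. The median difference over the 25 was 0.02.

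**Figure D3:**
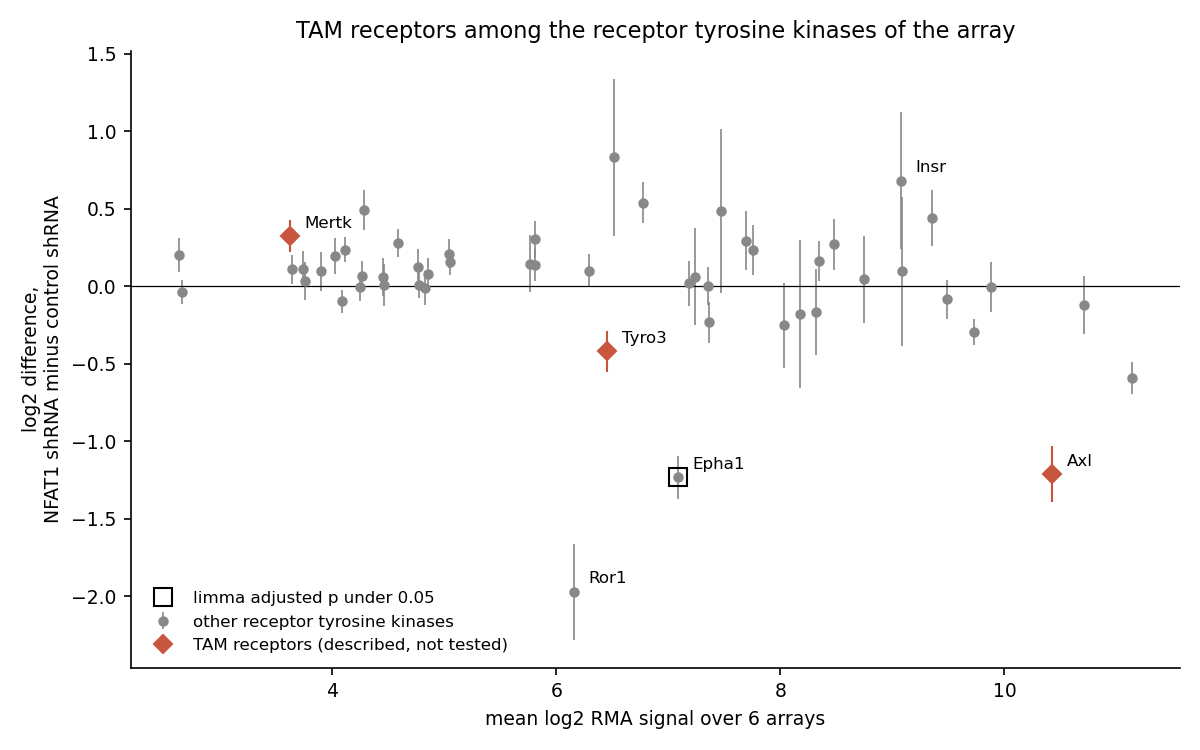
Log2 difference, NFAT1 shRNA minus control shRNA, against the mean log2 RMA signal over 6 arrays for 50 other receptor tyrosine kinases (grey) and the TAM receptors (red), each read by its probe set of highest mean; bars are the standard errors of the fit and the square marks Epha1, the kinase past limma's threshold. Axl (-1.21), Epha1 and Ror1 lie below the other kinases, most of which centre near 0.

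The vitamin K cycle supplies the carboxylated Gla residues that Gas6 and protein S need. Of 22 measured genes of the cycle and of other Gla proteins and their partners, 1 fell, 0 rose and 21 did not pass, with a median difference of 0.04. Vkorc1l1, which regenerates reduced vitamin K, read 9.38, 9.51 and 9.31 in the controls and 8.66, 8.28 and 8.60 with NFAT1 shRNA. It fell by 0.89 ± 0.12 (SE; limma adjusted p = 0.0497), to 54.1% of the control level. Its adjusted p lay close to the threshold, and over the alternatives it ran from 0.00684 to 0.296. Vkorc1l1 did not pass without control 1, 2 or 3 (0.253, 0.208 and 0.296), where 0 of all genes passed, or without NFAT1 shRNA 2 or 3 (0.105 and 0.0887). Vkorc1, the principal enzyme of this step, had means of 8.89 and 9.18, and every NFAT1 shRNA array was above every control. This difference of 0.30 ± 0.09 (SE) did not pass (limma adjusted p = 0.222). Vkorc1 was named after its values were seen, as the paralogue of Vkorc1l1.

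Ggcx, the carboxylase itself, was close to the array medians with a difference of -0.05, and was likewise added after its values were seen. Mgp, a Gla protein of the matrix that inhibits calcification, read 3.80, 5.18 and 4.44 in the controls and 6.34, 7.25 and 7.47 with NFAT1 shRNA. All 3 NFAT1 shRNA arrays were higher, but the difference of 2.55 ± 0.42 (SE) did not pass (limma adjusted p = 0.0704), and controls 1 and 3 were in the dim range. Aifm2, which reduces vitamin K and protects lipids from peroxidation, differed by 0.51 (adjusted p = 0.413), with NFAT1 shRNA 1 below every control.

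Genes for the recognition and engulfment of apoptotic cells, the process TAM receptors serve in phagocytes, had a median difference of 0.03. None of the 29 measured passed limma's test, and 5 higher and 1 lower had an unadjusted p under 0.05. Lrp1, a large endocytic receptor, differed by 1.48 ± 0.40 (SE; adjusted p = 0.182), reading 8.11, 9.45 and 9.57 with NFAT1 shRNA against 7.26, 7.92 and 7.53 in the controls. Thbs1, a matrix protein that bridges to engulfment receptors, differed by -0.90 ± 0.28 (SE; adjusted p = 0.217). Thbs1 passed without NFAT1 shRNA 3, the 1 pathway gene called in that setting. Of the 3 other proteins reported as TAM ligands, Tub and Tulp1 were dim, and Lgals3, which encodes galectin-3, differed by 0.42 ± 0.14 (SE; adjusted p = 0.239).

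Proteases and ligases that act on the receptors were measured by 10 genes, none of which passed, with 1 higher and 1 lower at an unadjusted p under 0.05. Adam17, a sheddase of TAM receptor ectodomains, read 9.33, 9.49 and 9.38 in the controls and 8.97, 9.17 and 8.96 with NFAT1 shRNA. Its groups did not overlap and its difference was -0.37 ± 0.09 (SE; limma adjusted p = 0.169). The ubiquitin ligase gene Nedd4 differed by 0.53 ± 0.16 (SE; adjusted p = 0.203).

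Among adaptors and kinases downstream of the receptors 0 of 26 passed limma's test, 5 were higher and 0 lower at an unadjusted p under 0.05 (10.1% and 7.01% of all genes), and the median difference was 0.16. Plcg2, a phospholipase C, differed by 1.06 (adjusted p = 0.246) and Tns2, a tensin reported to bind Axl, by 0.74 (adjusted p = 0.322), and in both cases NFAT1 shRNA 1 fell inside the control range.

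Of 27 transcription factors reported at TAM gene promoters, again 0 passed, 3 were higher and 1 lower at an unadjusted p under 0.05, and the median was 0.07. The AP-1 subunit gene Fos read 5.73, 6.97 and 6.56 in the controls and 6.98, 7.75 and 11.48 with NFAT1 shRNA, so its difference of 2.32 ± 1.13 (SE; adjusted p = 0.337) rested mainly on NFAT1 shRNA 3. Jun, which pairs with Fos, differed by 0.53 (adjusted p = 0.420), and NFAT1 shRNA 3 was its highest array too. Over all lists 167 of 179 genes were measured, of which 2 fell and 0 rose with limma, and 9 were lower and 23 higher at an unadjusted p under 0.05. Over all 18193 genes 1275 were lower and 1840 higher at that level, so all genes leaned the same way. The number of called list genes shifted with single arrays, as it did over all genes. Without NFAT1 shRNA 1, 34 of the 167 were called, beside 3349 of all 18193 genes. Without NFAT1 shRNA 3 it was 1, beside 66 of all genes. Without control 1, control 2, control 3 or NFAT1 shRNA 2, 0 of the 167 were called (17 to 25 at an unadjusted p under 0.05). Over all genes, 0 were called without any 1 of the controls and 2 without NFAT1 shRNA 2. Without both control 3 and NFAT1 shRNA 1, Lrp1, Mgp, Plcg2 and Aifm2 passed as higher and Epha1 and Vkorc1l1 as lower, beside 407 calls over all genes.

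**Figure D4:**
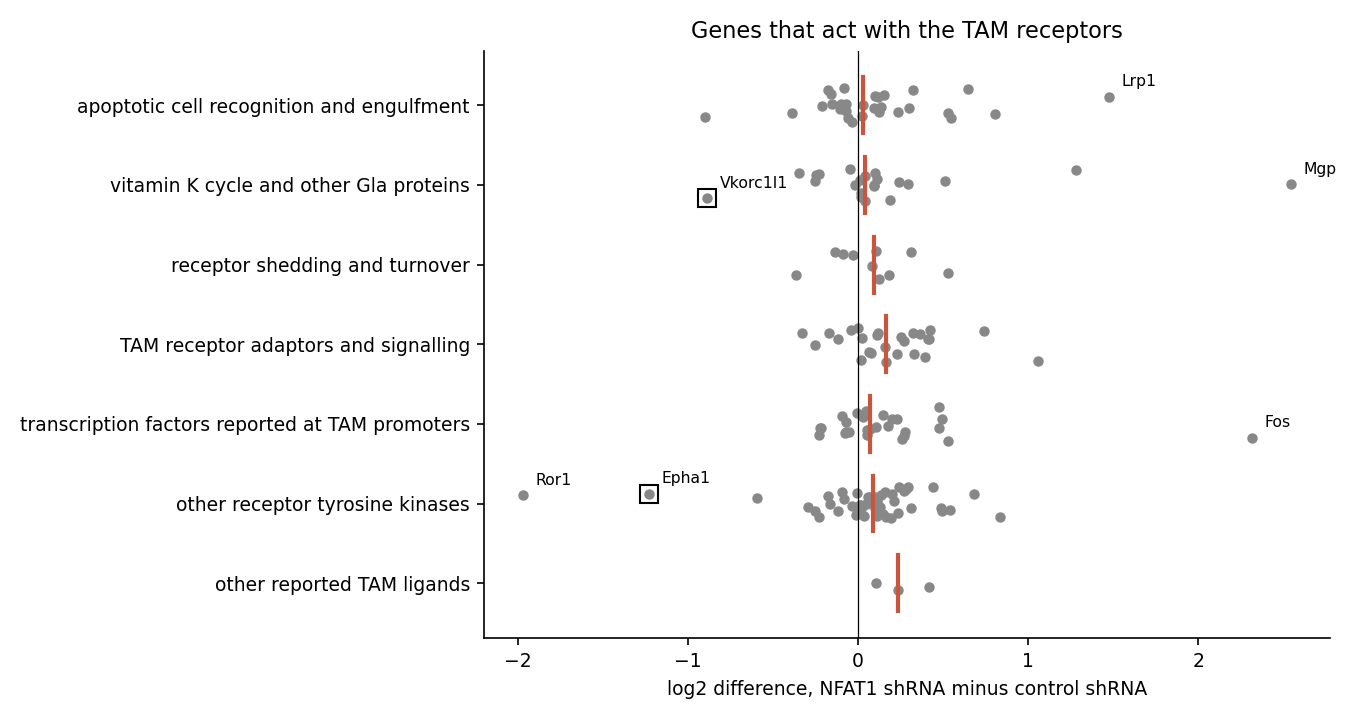
Log2 difference, NFAT1 shRNA minus control shRNA, of each measured gene in 7 lists of genes that act with or beside the TAM receptors; grey points are genes, red bars the list medians, and squares the 2 genes past limma's threshold, Vkorc1l1 and Epha1. Every list median lies between 0.03 and 0.23, while Mgp, Fos and Ror1 are the outlying points that did not pass.

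The Axl profile over the 6 arrays was compared with those of 8699 genes with a signal of at least 7, each profile centred on its own mean. The 5 nearest were Ube2v2, Ctsc, Mpzl2, Naa50 and Fam185a, with root mean square differences from Axl of 0.074, 0.077, 0.080, 0.097 and 0.105 log2 units. Ube2v2 is a ubiquitin conjugation cofactor, Ctsc encodes cathepsin C, Mpzl2 a cell adhesion protein and Naa50 an N-terminal acetyltransferase. Their differences between groups were -1.32, -1.20, -1.07, -1.18 and -1.28, and each was lower on all 3 NFAT1 shRNA arrays. Ube2v2 read 8.98, 8.39 and 8.81 with NFAT1 shRNA, with the lowest value on array 2 as for Axl. Being chosen for likeness to Axl over 6 arrays that share their normalization, these genes carry no test.

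**Figure D5:**
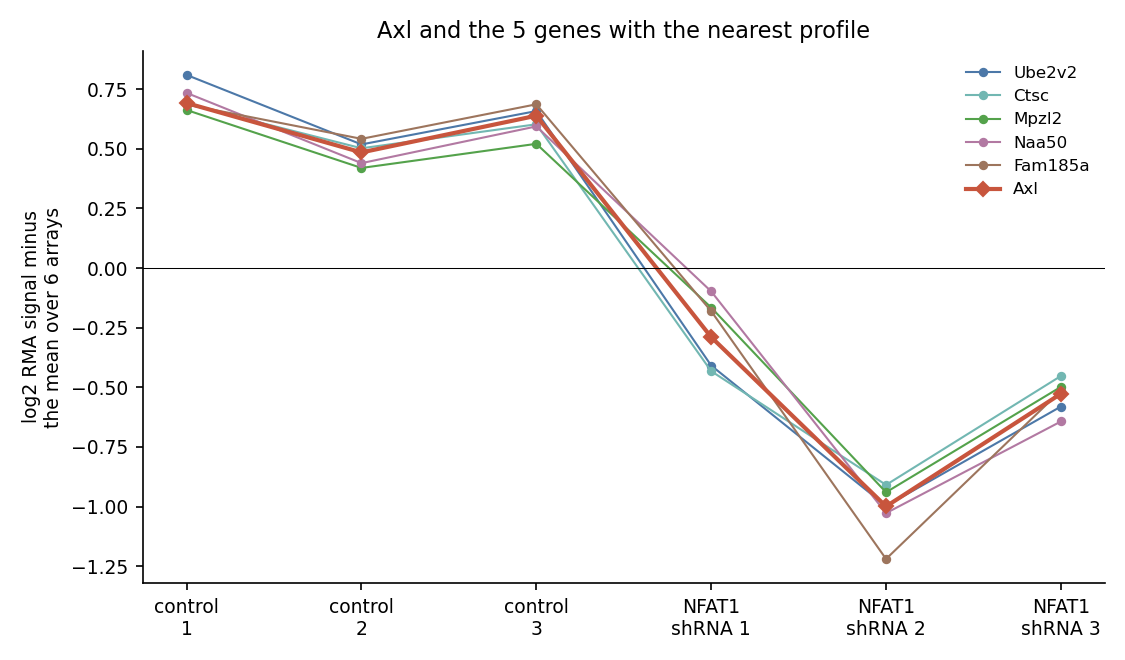
Log2 RMA signal minus the gene's own mean over the 6 arrays, for Axl (thick red) and the 5 genes of nearest profile; lines only join the arrays of one gene and imply no order. All 6 genes are above their mean on the 3 control arrays and lowest on NFAT1 shRNA 2.

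Markers were used to check that the arrays read an epithelial culture. Of 9 epithelial markers 8 were above the reference percentile on all 6 arrays, among them Krt8, Krt18, Epcam and Cdh1, and the mean signal of the list ran from 10.86 to 10.95 in the controls and from 10.60 to 10.77 with NFAT1 shRNA. None of the 9 passed limma's test, and 1 higher and 1 lower had an unadjusted p under 0.05. The basal keratin gene Krt14 read 10.67, 10.38 and 10.56 in the controls and 9.38, 7.46 and 8.40 with NFAT1 shRNA, a difference of -2.12 ± 0.44 (SE; adjusted p = 0.123). Krt14 and Axl thus had their lowest reading on the same array, and whether one difference has a part in the other was not tested.

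Of 12 macrophage markers 4 were above the percentile on all arrays, Csf1r, Cd14, Cd68 and Cd74. The others, Ptprc, Adgre1, Itgam, Lyz2, Aif1, Mrc1, Tyrobp and Fcer1g, were below it on all 6. The mean signal of the macrophage list ran from 4.85 to 4.97 in the controls and from 4.77 to 5.17 with NFAT1 shRNA, and summed on the linear scale it ran from 741 to 984 and from 604 to 1354. Fibroblast and endothelial lists had 1 of 8 and 1 of 6 markers above the percentile, Pdgfra and Kdr. The macrophage markers were thus split on the arrays on which Mertk was dim. Ptprc and Adgre1 were dim as well, whereas Csf1r, Cd14 and Cd68 had means over the 6 arrays of 8.17, 8.24 and 6.92.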

How the data were processed

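RNA from 6 samples of 4T1 cells, 3 per group, was measured on Affymetrix arrays, with groups and numbers as in the sample titles. The deposited values are log2 signals per probe set made by the authors; RMA is the method named in the submitters' processing notes. It corrects background, equalises the distributions of the arrays and summarises probes, so it compresses dim signals and would hide a shift of most transcripts. Its version is not given in the sources used here. Of 45037 probe sets, 34945 had 1 symbol, 932 several and 9160 none here. Gene numbers matched the GRCm38.p6 gene table for 34741, and 0 symbols changed.

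Linear models (limma 3.58.1 with eBayes moderation, R 4.3.3) compared the groups, once over all probe sets and once over 18193 genes read by their probe set of highest mean, with no filter and no covariate. P-values are 2-sided and adjusted by Benjamini-Hochberg, and a call is an adjusted p under 0.05. The method was tested on simulated data drawn independently for each probe set and array. Such data do not cover deviations shared between probe sets or arrays. Tables were made with Python 3.11.15. The members, gene lists, tests and alternatives were chosen with earlier results of these data known, and the chemosensory reference and the motifs after the data were seen. The text names every member, each list gene past the threshold, and otherwise the 2 largest differences per list among genes with a mean of at least 7 in a group. It also names the 5 genes (no members, and no Gm, Rik or LOC symbols) nearest to a member whose signal reaches 7 and ranges over at least 1, which only Axl did, and genes said to be outside this rule, with cell type markers. Arrays have no read depth.

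Alternatives were a filter on dim signals (at least 6 on 3 arrays), median scaling, a second quantile normalization, a trended and robust prior, array weights, a block on the replicate number, fits without each array or without both control 3 and NFAT1 shRNA 1, averaging the probe sets of each gene, and leaving out the _x_at, _s_at and _a_at probe sets.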

Additional observations from a re-analysis of the deposited data

How the results depend on the processing

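The Axl difference kept its sign in all 15 alternatives, from -1.37 to -0.64, the last with the mean of its probe sets, which was the 1 setting that moved it beyond the spread between arrays. Tyro3, Mertk and Pros1 kept their signs in the 14 settings that gave a value, at -0.52 to -0.27, 0.24 to 0.42 and -0.29 to -0.045, while Gas6 ran from -0.10 to 0.06. On Axl 1423586_at, Tyro3 1425248_a_at and Mertk the groups did not overlap, so leaving out or weighting arrays could not change these signs. The kept signs of these 3 genes are therefore no support. The filter left out Mertk, Gas6 and Pros1, and leaving out the suffixed probe sets removed Tyro3. Of the TAM probe sets, 1 was called by limma, Axl 1423586_at, with array weights and 1 with the replicate block, and 0 to 1 without single arrays. Nothing is read from these calls, as Axl was proposed from this contrast, and the counts over all probe sets follow.

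Called probe sets, 90 as reported, numbered 2279 with array weights, 1432 with the replicate block and 0 without both control 3 and NFAT1 shRNA 1 (9273 at an unadjusted p under 0.05), and 0 to 5794 without single arrays. Called genes, 93 as reported, numbered 3380, 792 and 407 in those settings, and 0 to 3349 without single arrays. Where single arrays left 0 calls, 1698 to 2247 genes and 3992 to 5086 probe sets had an unadjusted p under 0.05. Called pathway genes, 2 as reported, numbered 33 with array weights, 10 with the replicate block, 6 without both arrays, and 1 each, Epha1, with the filter, with median scaling and with the trended prior. They numbered 0 with the mean of probe sets (29 at an unadjusted p under 0.05) and 0 to 34 without single arrays. The cause of these shifts was not tested.

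Same-numbered arrays deviated together at correlations of 0.619, 0.513 and 0.051 for numbers 1, 2 and 3. Control 1 with NFAT1 shRNA 2 and control 2 with NFAT1 shRNA 1 gave -0.521 and -0.58, and NFAT1 shRNA 3 correlated best with control 2 (0.269). Control 3 was the middle control in 312 of the 314 probe sets described above. Its correlations with the NFAT1 shRNA arrays (-0.023, -0.023 and 0.051) therefore cannot decide whether the numbers are pairs. That question was not settled, and the replicate block is given as an alternative. Signals near or below the array medians limit what can be said of Mertk, Gas6 and Pros1.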
